A study of Mus musculus with 2 samples.

Results

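Hox genes, their Meis and Pbx partner genes and the T-box genes were followed through the first days of fat cell induction in mouse embryonic fibroblasts. The members were all gene probes whose platform symbol is a Hox gene of the A to D clusters or a numbered Meis, Pbx or Tbx gene. This gave 73 of 29922 gene probes, which stood for 56 of 16637 named genes: 37 Hox genes (46 probes), 6 Meis and Pbx genes (8 probes) and 13 T-box genes (19 probes). Both samples were cells labelled as Xbp1 knockout; the product of Xbp1 switches on genes that relieve stress in the endoplasmic reticulum. One sample was collected on day 0, when the cells became confluent, and 1 on day 3. Whether the day 0 sample was taken before the induction medium was added is not stated in the labels. Induction ran for 72 h with 5 µM troglitazone, an agonist of PPARγ, with insulin at 10 µg/ml, with DXM at 5 µM and with 0.25 mM of the phosphodiesterase inhibitor IBMX. The sources used here do not say how many embryos or cultures the cells came from. Wild-type cells were not analysed here.

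Hox genes encode homeodomain transcription factors that set regional identity along the head-to-tail axis and along the limbs. They lie in clusters whose order on the chromosome follows the order of their expression along the body, with low paralog numbers toward the head and high numbers toward the tail and the limb tips. Fibroblasts keep much of the Hox pattern of the place they came from, so their Hox genes are often read as a record of origin. Meis and Pbx proteins are homeodomain proteins of the TALE class that bind DNA together with Hox proteins. T-box factors act in the limb buds, the heart and the body wall, where Tbx5 marks the forelimb and Tbx4 the hindlimb.

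Each day was represented by 1 array, so no difference was checked by replicates and none has a p-value. A probe was called detected on a day where its normalized signal was above the median over all gene probes, 122 on either day (6.93 as log2). The raw median was 78 on day 0 and 166 on day 3, and spots named empty had a 95th percentile of 7 and 9. Repeated spots of control features gave an SD of a difference between days, from within-array scatter alone. Pooled over features, it was 0.73 where the mean log2 signal lay between 6 and 8, 0.64 between 8 and 10, 0.63 between 10 and 12 and 0.95 between 12 and 16. The median over features was 0.49, 0.38, 0.43 and 0.36 in the same ranges. Signals of different probes depend on the probe and are not compared with each other. The Xbp1 probe read 20936 on day 0 and 13561 on day 3, and since its place relative to the deleted part is not given it does not check the label. All 12 fibroblast markers were detected on both days. Among markers of other cell types, 1 of 9 for adipocytes, 5 of 7 for leukocytes, 3 of 5 for endothelium, 2 of 7 for epithelium, 2 of 7 for skeletal muscle and 4 of 7 for neural cells were detected on at least 1 day. The summed signal of the leukocyte markers was 17340 on day 0 and 43660 on day 3, most of it from Cd14 (16036 and 39698.5). Itgam read 703.5 and 3556 and Cd68 198.5 and 268, Csf1r read 269.5 and 51.5 and Aif1 131.5 and 78.5, and the defining Ptprc read -0.5 and 1.5 and Adgre1 4.5 and 10.5. For the adipocyte markers the sums were 8602 and 59620, of which Lpl alone gave 8480 and 59293, and the other 8 markers were below the threshold on both days. The sums were 560.5 and 757 for endothelium, 586.5 and 624.5 for epithelium, 706 and 1224 for skeletal muscle and 905.5 and 703.5 for neural markers. The part of other cell types in the differences below was not tested. In a bulk sample, fewer cells of a type and less RNA per cell cannot be told apart.

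Most of the Hox probes were detected, and most of the T-box probes were not. Of the 73 member probes, 50 (68.5%) passed the median on at least 1 day, against 54.0% of all gene probes, and 43 did so on both days, against 45.8%. Counted by gene, 39 of 56 members were detected on at least 1 day, against 64.1% of all named genes, and 35 on both days, against 56.7%. The 39 were 29 of 37 Hox genes, 5 of 6 Meis and Pbx genes and 5 of 13 T-box genes. Detected Hox genes came from all 4 clusters: 6 of 10 in HoxA, 9 of 10 in HoxB, 6 of 8 in HoxC and 8 of 9 in HoxD. By paralog number, 5 of 7 genes numbered 1 to 3, 11 of 15 numbered 4 to 8 and 13 of 15 numbered 9 to 13 were detected. Nearest to the threshold lay a probe of Pbx4 at 122.5 on day 3, just above it, and the Tbx2 probe at 117.5 on day 0, just below it.

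The 17 member genes below the threshold on both days were Hoxa3, Hoxa4, Hoxa6, Hoxa13, Hoxb8, Hoxc5, Hoxc10, Hoxd1, Meis3, Tbx1, Tbx2, Tbx4, Tbx6, Tbx19, Tbx20, Tbx21 and Tbx22. Including the dimmer probes of detected genes, 23 probes stayed below it, with signals from -7 to 117.5. Of these 23, 17 exceeded the 95th percentile of the empty spots on at least 1 day, so a signal under the threshold does not show that a gene was silent.

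**Figure D1:**
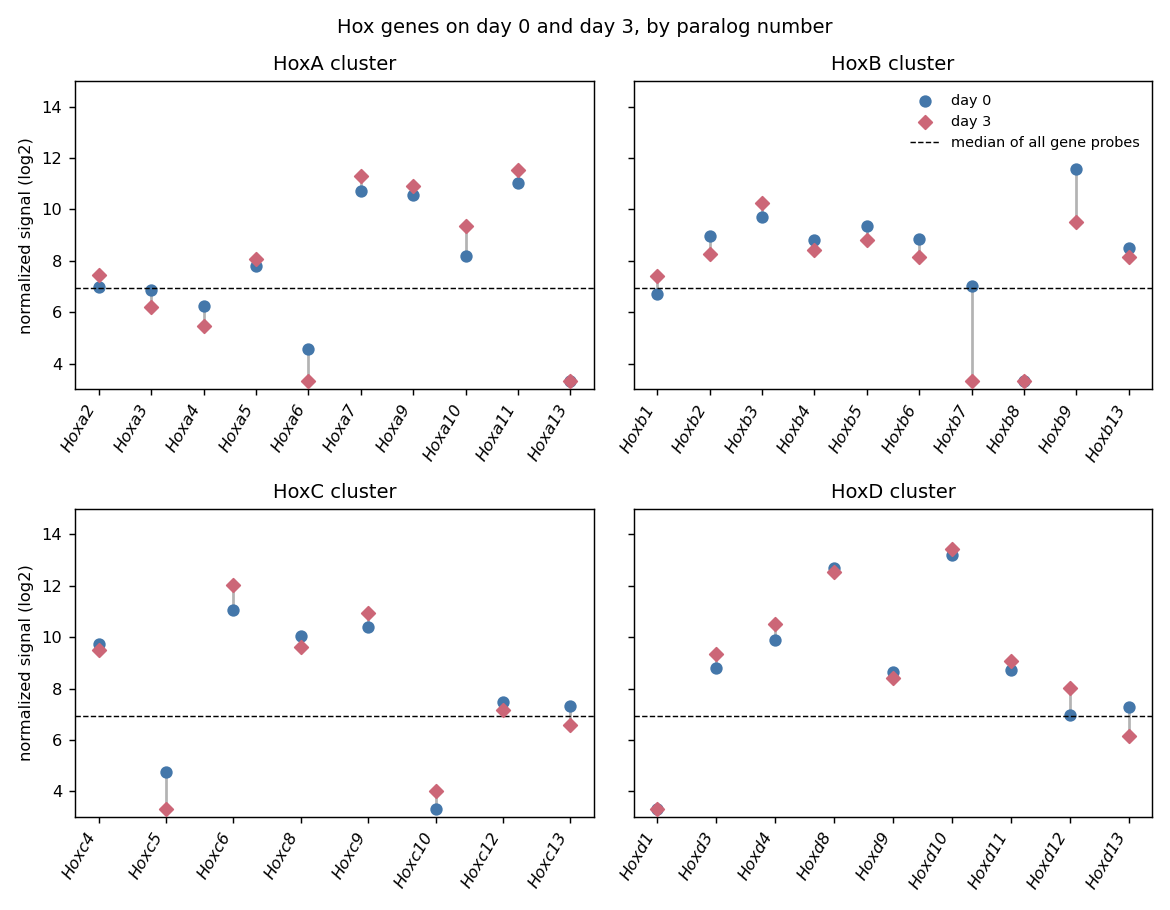
Normalized signal (log2) of the probe that stands for each Hox gene, on day 0 (circles) and day 3 (diamonds), by cluster and paralog number; each point is 1 array, and signals under 10 are drawn at 10. The dashed line is the median of all gene probes (6.93), and heights can be compared between days but not between genes. Hoxb9 has the widest gap among genes above the line on both days, from 3069.5 to 726.5 in linear signal.

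HoxA genes above the threshold all read higher on day 3. Hoxa2, which patterns the hyoid arch, read 125.5 on day 0 and 174.5 on day 3 (0.48 as a log2 difference, like the values in parentheses that follow). Hoxa5, which acts in the lower neck and the lung, read 223 and 273 (0.29). Both lay within the pooled repeat-spot SD of 0.73. Hoxa7 read 1688.5 and 2501 (0.57) by its brighter probe, and Hoxa9, a regulator of trunk identity and of blood progenitors, read 1535 and 1943 (0.34). Hoxa10, which acts in the lumbar spine and the uterus, read 294 and 660.5, a 2.25-fold difference (1.17) that exceeded the pooled SD of 0.64. Hoxa11, which shapes the forearm and the kidney, read 2099 and 2932.5 (0.48). The day 3 signal was therefore higher in 6 of 6 detected HoxA genes, against 51.5% of all detected genes, and 5 of the 6 differences were smaller than their pooled SD. This count rests on the threshold and on the brightest probe of each gene. Below the threshold, Hoxa3 (-0.65), Hoxa4 (-0.79) and Hoxa6 (-1.26) read lower. With cyclic loess scaling 7 HoxA genes were detected and 1 read lower. The other Hoxa9 probes gave -0.25 and 1.46. The 6 directions held with the median of all genes subtracted under each scaling, whereas as read only 3 of 6 were higher under median scaling.

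HoxB genes read lower on day 3 in 7 of 9 cases, against 5160 of all 10656 detected genes. Hoxb9, which patterns the thoracic segments and the ribs, read 3069.5 on day 0 and 726.5 on day 3. It was 4.23-fold lower on day 3 (-2.08), over 3 times its pooled SD of 0.63. Hoxb6 read 463 and 283.5 (-0.71), Hoxb2, a hindbrain gene, read 500 and 304 (-0.72), Hoxb5 read 656.5 and 449 (-0.55), and Hoxb4, known from blood stem cells, read 449 and 346 (-0.38). Hoxb13, which acts in the tail and the prostate, read 362 and 286.5 (-0.34) by its brighter probe. Its other probe stayed below the threshold (12 and 23.5), and the mean of its probes gave 0.32. Hoxb7 read 129.5 on day 0 and -3 on day 3, and because its day 0 signal barely exceeded the threshold it can be called only at least 1.06-fold lower. The 2 HoxB genes that read higher were Hoxb3, with 827.5 and 1239 (0.58), and the hindbrain gene Hoxb1, with 104 and 170.5, at least 1.40-fold higher. Hoxb5, Hoxb4, Hoxb13 and Hoxb3 lay within the pooled SD of 0.64, and Hoxb1 (0.71 as read) within 0.73. Hoxb2 and Hoxb6 exceeded their pooled SD of 0.64. In the order of the chromosome, the detected genes Hoxb13, Hoxb9, Hoxb7, Hoxb6 and Hoxb5 all read lower. Next come the lower Hoxb4 and the higher Hoxb3, which overlap in the annotation and are not ordered against each other here. The lower Hoxb2 lies between the higher Hoxb3 and Hoxb1. The HoxB counts were the same with the median of all genes subtracted under quantile and median scaling. With no normalization and as read, 7 of the 9 were higher instead, with every array effect left in.

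HoxC genes had no common direction, with 2 of 6 detected genes higher on day 3 and 4 lower. Hoxc6, a gene of the neck-to-thorax boundary and the forelimb level, read 2143 and 4197.5, a 1.96-fold difference (0.97) beyond the pooled SD of 0.63. Hoxc9, a thoracic gene, read 1329.5 and 1950.5 (0.55). Hoxc8, another thoracic gene, read 1061.5 and 777 (-0.45), and its other probe gave -0.64. Hoxc4 read 852 and 722.5 (-0.24). The most tailward members, Hoxc12 with 176.5 and 142 (-0.31) and the hair follicle regulator Hoxc13 with 162 and 97, at least 1.33-fold lower, lay close to the threshold. Hoxc6 and Hoxc13 alone in this cluster exceeded their pooled SD as read. With no normalization all 6 detected HoxC genes read higher, and 3 of 6 did once the median of all genes was subtracted.

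HoxD genes were mostly close between the days, with 5 of 8 detected genes higher on day 3 and 3 lower, a split that was 3 and 5 under median scaling as read and 8 and 0 with no normalization. Hoxd10, which acts in the lumbar spinal cord and the limbs, read 9326 and 11012 (0.24), and Hoxd8 read 6547.5 and 6002 (-0.13), both inside the pooled SD of 0.95. Hoxd3 read 452 and 658 (0.54), Hoxd4 read 961.5 and 1469.5 (0.61), and Hoxd9 read 399.5 and 344 (-0.22). At the limb-tip end of the cluster, Hoxd11, a partner of Hoxa11 in the forearm, read 421.5 and 537 (0.35) by its brighter probe. Its other probe gave -1.91, so its direction was not settled. Hoxd12 read 127 and 261, a 2.06-fold difference (1.04). Hoxd13, the digit gene, read 155 and 71.5 (-1.12), at least 1.27-fold lower once the day 3 signal is set to the threshold. Of the 4 genes numbered 13, 3 were detected (Hoxb13, Hoxc13 and Hoxd13). By the probe that stands for it each read lower on day 3, 2 of them being detected on day 0 only. With no normalization the 3 genes read 0.46, 0.30 and 0.01 higher on the log2 scale.

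Of the 12 paralog numbers with at least 2 detected genes, 5 (numbers 3, 8, 10, 11 and 13) had all of them in 1 direction and 7 were split. These groups held only 2 to 4 detected genes, and no reference share was computed for them. With 51.5% of all detected genes reading higher, such small groups often share a direction. The count is therefore not read as paralogs changing together. Each gene counted by its brightest probe. With the mean of all probes Hoxd11 read -0.78, so number 11 was then split, and Hoxb13 read 0.32. Hoxa3, below the threshold, read lower (-0.65) and was not counted under number 3. Among the genes numbered 9, Hoxa9 and Hoxc9 differed by 0.34 and 0.55, Hoxd9 by -0.22 and Hoxb9 by -2.08. Among those numbered 4, Hoxd4 differed by 0.61, Hoxb4 by -0.38 and Hoxc4 by -0.24, while Hoxa4 was below the threshold. The median log2 difference of the detected genes was 0.48 in HoxA, -0.55 in HoxB, -0.28 in HoxC and 0.29 in HoxD, against 0.03 over all detected genes. Differences between the clusters were not tested.

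**Figure D2:**
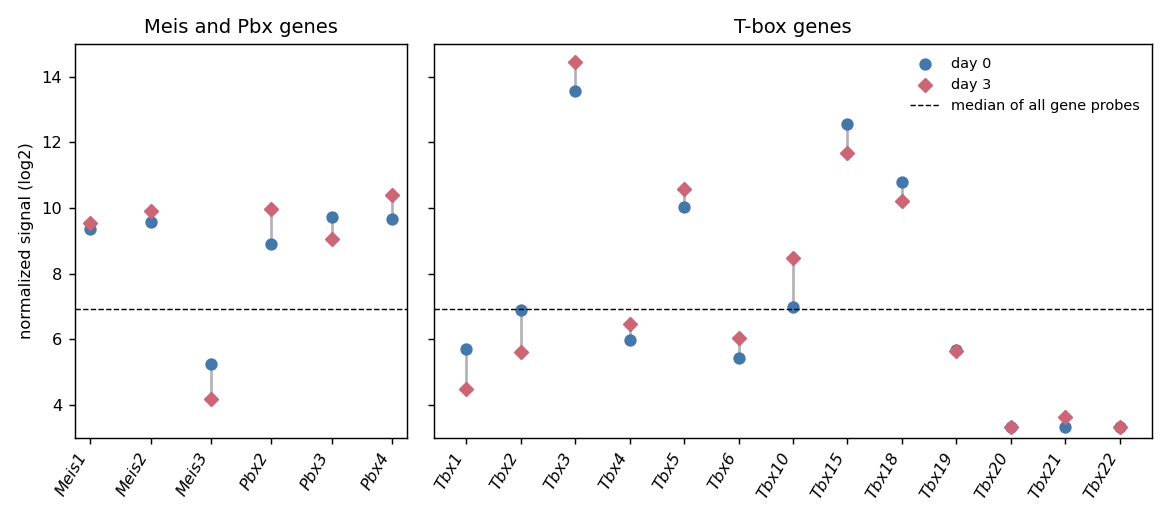
Normalized signal (log2) of the probe that stands for each Meis, Pbx and T-box gene, on day 0 (circles) and day 3 (diamonds), with 1 array per day and signals under 10 drawn at 10. The dashed line is the median of all gene probes (6.93), above which lie 5 of 6 Meis and Pbx genes and 5 of 13 T-box genes; heights can be compared between days but not between genes.

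Partner genes of the Hox proteins stayed above the threshold on both days, except Meis3. Meis1, which marks the upper part of the limb, read 650.5 and 747 (0.20), inside the pooled SD of 0.64. Meis2 read 759.5 and 965.5 (0.35), but its other probe read 417 and 312 (-0.42), so its direction was not settled. Pbx2 read 473 and 1001.5, a 2.12-fold difference (1.08), and Pbx4 read 815.5 and 1351.5 (0.73), and its dimmer probe, at 79.5 and 122.5, crossed the threshold on day 3 only and is bounded at 1.004-fold higher. Pbx3 went the other way, with 849 and 534 (-0.67). Under median scaling as read, Meis1 (-0.26) and Meis2 (-0.15) were lower, while the Pbx genes kept their directions. The 3 Pbx differences exceeded the pooled SD of 0.64 (Pbx2 and Pbx3) or 0.63 (Pbx4). Meis3 read 38 and 18.

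The T-box genes above the threshold were Tbx3, Tbx5, Tbx10, Tbx15 and Tbx18. Tbx3, which acts at the limb margins and in the mammary gland, read 12084.5 and 22453, a 1.86-fold difference (0.89) inside the pooled SD of 0.95. Tbx5, the forelimb and heart gene, read 1044 and 1528 (0.55), and its other probe read 527.5 and 719 (0.45). Tbx15, which acts in the dorsal skin, the scapula and fat, read 6076.5 and 3301 (-0.88), against -0.13 by its other probe, with 386 and 353.5. Tbx18, a gene of the somites and the ureter wall, read 1771.5 and 1175 (-0.59), and its other probe stayed below the threshold (54 and 77.8). Tbx10 read 125.5 and 354.5, a 2.83-fold difference (1.5), and its other probe stayed below the threshold (60.5 and 90.5). The hindlimb gene Tbx4 stayed below the threshold by both of its probes, at -5.5 and -7 and at 62.5 and 88.5. Pitx1, the regulator that acts above Tbx4 in the hindlimb and was named after its values were seen, also lay below it, at 19.5 and 10.

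**Figure D3:**
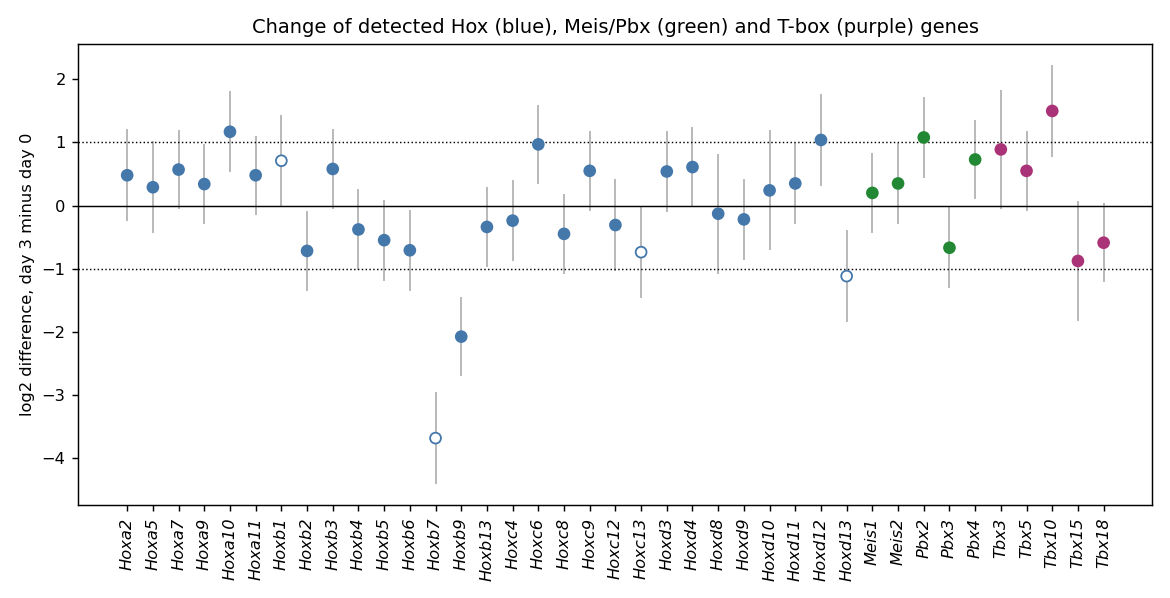
Log2 difference of normalized signal, day 3 minus day 0, for the 39 detected member genes, ordered by family and paralog number; bars are 1 pooled repeat-spot SD on each side and dotted lines mark 2-fold. Filled points exceeded the threshold on both days, open points on 1 day only, so that the open point of Hoxb7 at -3.69 stands for a difference of at least 1.06-fold.

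Only 7 of the 39 detected genes differed by 2-fold or more as read. Higher on day 3 were 4 (10.3%), namely Tbx10, Hoxa10, Pbx2 and Hoxd12, against 12.8% of all detected genes. Lower were 3 (7.69%), namely Hoxb7, Hoxb9 and Hoxd13, against 10.3% of all detected genes. With signals below the threshold set to it, Hoxb9 was the only 1 of the 3 that stayed 2-fold lower. The 4 higher genes, like Hoxb9, were above the threshold on both days, so this step could not change them. On day 0, Hoxd12 (127) and Tbx10 (125.5) exceeded the threshold only narrowly. Among the 35 genes above the threshold on both days, 4 were 2-fold higher, against 10.1% of such genes, and 1 was 2-fold lower, against 8.43%. Differences smaller than 1.5-fold were seen in 21 of the 39, against 54.9% of all detected genes. Beyond 1 pooled repeat-spot SD lay 13 of the 39, against 37.5% of all detected genes, and beyond the median repeat-spot SD 26 of the 39, against 59.1%. These shares lie close to those of all detected genes. The split of 4 higher and 3 lower was 1 and 8 under median scaling as read, where Tbx10 alone stayed 2-fold higher. The shares of all detected genes were then 7.78% and 24.3%. Once the median of all genes was subtracted, the split was 5 and 3, against 15.09% and 10.15%. With that median subtracted, 38 of the 39 genes kept 1 direction in the 4 normalizations, Hoxc12 being the exception, and as read 18 did. With the median subtracted, median scaling and no normalization differ only through the floor of 10, so the 4 are not separate checks.

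Promoter windows are shown for the 4 genes that were 2-fold higher, because each was detected on both days and had a matched RefSeq window. The windows run from 250 bases before to 50 bases after a RefSeq transcript start in build GRCm38.p6, 5′ to 3′ on the strand of the gene. RefSeq windows were matched for 36 of the 56 member genes and for 4 of the 5 that were 2-fold apart and above the threshold on both days. The windows are chr6:52234890-52235189 on the minus strand for Hoxa10, chr2:74674763-74675062 on the plus strand for Hoxd12, chr17:34592009-34592308 on the plus strand for Pbx2 and chr19:3992502-3992801 on the plus strand for Tbx10. Capitals mark matches to the motifs given below.
Hoxa10: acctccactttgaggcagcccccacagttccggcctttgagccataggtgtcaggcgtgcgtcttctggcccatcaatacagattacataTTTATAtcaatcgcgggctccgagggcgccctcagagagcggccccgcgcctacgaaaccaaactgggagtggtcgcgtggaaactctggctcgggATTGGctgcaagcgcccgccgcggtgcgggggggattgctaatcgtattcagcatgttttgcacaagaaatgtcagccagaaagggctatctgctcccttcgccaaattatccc
Hoxd12: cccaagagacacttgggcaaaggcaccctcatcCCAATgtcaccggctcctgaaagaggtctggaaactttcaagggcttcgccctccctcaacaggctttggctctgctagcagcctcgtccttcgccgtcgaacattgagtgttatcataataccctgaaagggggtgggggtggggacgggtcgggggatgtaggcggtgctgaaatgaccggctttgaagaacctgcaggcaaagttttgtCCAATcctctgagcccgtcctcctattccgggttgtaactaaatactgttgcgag
Pbx2: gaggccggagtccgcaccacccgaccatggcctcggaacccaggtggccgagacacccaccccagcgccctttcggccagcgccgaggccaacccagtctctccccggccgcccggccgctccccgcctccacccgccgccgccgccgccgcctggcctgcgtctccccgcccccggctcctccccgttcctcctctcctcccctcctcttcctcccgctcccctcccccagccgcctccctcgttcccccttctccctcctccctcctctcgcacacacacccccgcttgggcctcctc
Tbx10: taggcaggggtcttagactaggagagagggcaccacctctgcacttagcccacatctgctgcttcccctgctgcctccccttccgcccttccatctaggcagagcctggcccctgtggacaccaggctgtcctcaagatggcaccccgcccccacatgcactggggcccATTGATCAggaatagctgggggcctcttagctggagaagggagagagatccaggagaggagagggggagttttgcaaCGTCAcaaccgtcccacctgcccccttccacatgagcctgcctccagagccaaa
Searched on both strands were the cAMP response element TGACGTCA and its short form TGACG, which overlaps it, the Hox-Pbx site TGATNNAT, the T-box core GGTGTGA, the TATA box TATAAA and the CCAAT box CCAAT. Of all 32851 promoter windows, 1.79% held the full cAMP element, 20.8% its short form, 8.85% the Hox-Pbx site, 3.98% the T-box core, 13.6% the TATA box and 37.4% the CCAAT box. The Tbx10 window held the Hox-Pbx letters at bases 170 to 177 and the short cAMP form at bases 247 to 251, both on the opposite strand. The Hoxa10 window held a TATA box at bases 91 to 96 and a CCAAT box at 187 to 191, both on the opposite strand, and a window at another Hoxa10 start held none of the motifs. The Hoxd12 window held CCAAT at bases 34 to 38 and 246 to 250. None of these letters occurred in the Pbx2 window, whose GC content was 76% against a median of 52.7% over all windows. Each match is a description of letters, and no binding was measured.

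**Figure D4:**
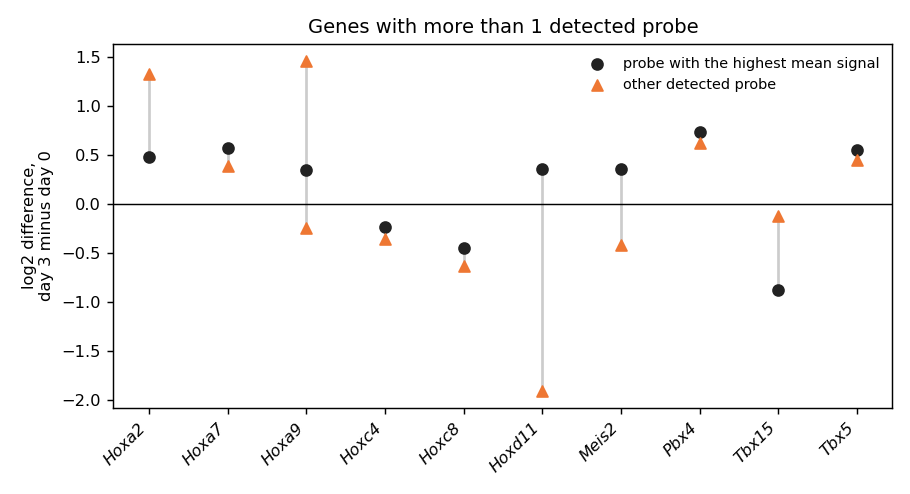
Log2 difference, day 3 minus day 0, of every detected probe of the 10 member genes with more than 1 detected probe; circles are the probe with the highest mean signal and triangles the others. Hoxd11, Hoxa9 and Meis2 have probes on both sides of 0, and the pairs of Tbx5, Pbx4 and Hoxc4 lie within 0.12 of each other.

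Agreement between probes of 1 gene gave another view of the error. Of the 10 member genes with at least 2 detected probes, 3 had probes of opposite sign, against 35.9% of 1968 such genes on the array. The median gap between the highest and the lowest probe was 0.47 for the members and 0.64 for all such genes. Hoxd11 had the widest gap, 2.26, because its dimmer probe read 180 and 48 (-1.91), at least 1.48-fold lower. Hoxa9 gave -0.25 (550 and 463) and 1.46 (160.5 and 442) by its other probes, against 0.34 by the one that stands for it. Hoxa2 gave 1.32 by its dimmer probe, which was below the threshold on day 0 (52.5 and 131). Probes of Hoxa7 (0.57 and 0.38) and Hoxc8 (-0.45 and -0.64) lay within 0.19 of each other. In the annotation 25 of the 56 member genes overlap another gene, such as Hoxd10 with Hoxd11, Hoxd3 with Hoxd4 and Hoxb3 with Hoxb4. Probe positions and strands were not analysed here, so signals of such neighbours cannot be assigned with certainty.

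Genes listed as partners or possible regulators of Hox genes were measured on the same arrays. Whether any of them, such as Hmx1 or Irx3, acts on Hox genes in these cells was not tested. In a list of TALE partners, retinoic acid receptors and other genes, 15 of 22 genes were detected. By 2-fold or more, 3 of the 15 read higher on day 3 and 0 read lower, against 12.8% and 10.3% of all detected genes, and the median was 0.23. Rarb, a retinoic acid receptor gene that retinoic acid itself induces, read 439 and 1009 (1.20), Hmx1 read 382 and 867.5 (1.18), Irx3 read 435 and 708 (0.70), and Rxrg was at least 1.33-fold higher (45.5 and 162). Polycomb proteins keep Hox genes repressed and trithorax proteins keep them active. Of 38 such genes on the array 35 were detected, of which 1 (2.86%) read 2-fold higher and 3 (8.57%) read 2-fold lower, against the same 12.8% and 10.3%, with a median of -0.23. The Polycomb genes Pcgf5 (2354 and 954, -1.30) and Rbbp4 (8408 and 3803.5, -1.14) were lower, Pcgf2 was at least 1.14-fold lower (139.5 and 62.5), and Cbx7 was higher (961.5 and 2005, 1.06).

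A list of other positional regulators of the limb and trunk mesenchyme had 43 of 65 genes detected, 4 of them (9.30%) 2-fold higher and 3 of them (6.98%) 2-fold lower, against 12.8% and 10.3% of all detected genes, with a median of 0.10. Lhx2, a homeobox gene of the growing limb bud, read 644 and 4129, a 6.41-fold difference (2.68). Gli3, a transcription factor of the hedgehog pathway that sets digit number, read 439 and 1635 (1.90), but its other detected probe read 454 and 487.5 (0.10). Osr1, a gene of the intermediate and limb mesenchyme, read 6938 and 2075 (-1.74). Nkx3-2 was at least 1.08-fold lower (131.5 and 48). Once the median of all genes is subtracted, median scaling and no normalization differ only through the floor of 10. With it subtracted, none of the genes named from these 3 lists changed direction in the 4 normalizations. As read, Pcgf2 reached 0.05 and Pitx1, which was below the threshold, reached 0.35 in at least 1 of them.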

How the data were processed

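Per the labels, each array was a single-colour Cy5 hybridization of amplified total RNA. The deposited per-sample tables gave 1 linear intensity for each of 39200 spots, and no source used here names the scanner or the background correction. Spots named empty had a median of 0 on both days, so no further background was subtracted. Quantile normalization of the 29922 gene probes used limma 3.58.1 (R 4.3.3), followed by a floor of 10 and log2. Platform symbols were brought up to date with the RefSeq genes of GRCm38.p6, which changed 0 member symbols. Each gene was represented by its brightest probe on average over both days. Control features printed as 6 spots gave the repeat-spot SD of a difference between days. The normalization was tested on simulated data in which only brighter probes were given known folds. That test does not cover signals near the threshold.

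Members, gene lists and tests were chosen with earlier results of these data known. The members above the threshold are named with their values, the others by count, range and name, and each other list by up to 4 detected genes with the largest differences. Genes named outside this rule are marked. With 1 array per day no test was run, and the number of arrays limits the precision. Alternatives covered normalization, offset, detection, probe choice, the fold and the authors' table of processed intensities.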

Additional observations from a re-analysis of the deposited data

How the results depend on the processing

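Member genes that were 2-fold higher or lower numbered 4 and 3 in the reported setting. Median scaling over all gene probes, which shifted the median of all detected genes to -0.49, gave 1 higher and 8 lower of 39. The shares of all detected genes were then 7.78% and 24.3%. No normalization, with a shift of 0.60, gave 17 higher and 2 lower of 39, against 32.4% and 3.2% of all detected genes. With the shift subtracted, a step added after the data were seen, both gave 5 higher and 3 lower, against 15.09% and 10.15%. These settings differ by 1 constant per array. The authors' table, with values for 30 member genes, gave 2 higher and 1 lower, against 9.91% and 8.46% of all genes in it. It held no value for Hoxd12, Tbx10, Hoxb7 or Hoxd13, so it could not check them. Lower genes numbered 8 of 52 above the 95th percentile of empty spots, against 11.5% of all such genes. With no detection filter they numbered 8 of 56, against 10.8%. Above the median on both days 1 of 35 was lower, against 8.43%. With dim signals raised to the threshold 1 of 39 was lower, against 8.51%. A 1.5-fold limit gave 9 higher and 9 lower, and a 3-fold limit gave 0 higher. The median difference of detected members, 0.29 in the reported setting, was -0.25 under median scaling and 0.84 with no normalization. Relative to all genes, 38 of the 39 genes kept 1 direction in the 4 normalizations, the exception being Hoxc12 (-0.46 to 0.09); as read, 18 did. Hoxd13 turned to 0.01 with no normalization and read -0.59 with the shift of 0.60 subtracted. Other genes that read lower also changed sign with no normalization, such as Hoxb2 (0.02) and Hoxb13 (0.46). Hoxb9 stayed 2-fold lower in all 12 settings (-2.66 to -1.57). It has 1 probe, above the threshold on both days, so the settings for detection and probe choice could not move it. No paired analysis was possible because each day had 1 array.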
